A study of Mus musculus with 27 samples.

Results

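The NADPH-producing enzymes read here were the products of 6 genes, G6pdx, Pgd, Taldo1, Tkt, Me1 and Idh1, out of 27764 genes on the array. They were taken by name: every non-control probe that carried 1 of these names was used, which gave 10 of 41174 probes. A gene was read as the mean over its probes of the log2 ratio of the sample, labelled with Cy5, to Universal Mouse Reference RNA, a pool of RNA from mouse cell lines labelled with Cy3. No measured value chose the members, although they were picked with earlier results of these data known. Spots that the scanner software marked as outliers were kept, because the marks fell on 96 of the 270 member spots (35.6%) and none of those spots was saturated.

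The study profiled 27 arrays, 3 biological replicates in each of 9 groups, to follow gene expression while the mouse esophagus changes from a simple columnar to a keratinized squamous epithelium and to ask what Nrf2 and Keap1 do in it. Wild-type C57BL/6J whole esophagus was taken at E11.5 and E15.5 (embryonic days 11.5 and 15.5), at birth (P0) and at postnatal day 7 (P7). Whole esophagus at P7 was also taken from Nrf2-/-, Keap1-/- and Nrf2-/-Keap1-/- (double null) mice on the C57BL background, and esophageal epithelium from wild-type and Nrf2-/- adults 8 weeks old. The null alleles were carried in the germ line and not restricted to the epithelium. The P7 tissue was the whole organ and the adult tissue the epithelium, so age and tissue cannot be told apart between them, and in bulk samples fewer cells of a type and less RNA per cell cannot be told apart either.

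NADPH carries the electrons for the reduction of oxidized glutathione and thioredoxin, for detoxifying reductases and for the synthesis of fatty acids. In the oxidative branch of the pentose phosphate pathway, glucose-6-phosphate dehydrogenase (G6pdx) and 6-phosphogluconate dehydrogenase (Pgd) each make NADPH, while transaldolase (Taldo1) and transketolase (Tkt) make none themselves and return the pentoses to glycolysis in the non-oxidative branch. Malic enzyme (Me1) and isocitrate dehydrogenase (Idh1) make NADPH in the cytosol from malate and isocitrate. Nrf2 is a transcription factor that binds the antioxidant response element together with a small Maf protein, Keap1 holds it in the cytoplasm and marks it for degradation, and in other tissues these enzymes are known targets of Nrf2.

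The members lie on 6 different chromosomes of the mouse assembly GRCm38.p6, as annotated by RefSeq. G6pdx spans chrX:74409483-74428880, Pgd chr4:149149991-149166705, Taldo1 chr7:141392160-141402976, Tkt chr14:30549131-30574724, Me1 chr9:86581363-86695914 and Idh1 chr1:65158616-65186479. The core of the antioxidant response element, TGACNNNGC, was searched on both strands of the RefSeq promoters, each 300 bases long, from 250 bases before to 50 after an annotated start. It was found in 12.4% of all 32851 promoters and in 3 of 9 member promoters, those of 3 of the 6 genes, and the 3 are shown because they hold the core, in capitals, in windows of 100 bases written 5′ to 3′ on the strand of the gene.
G6pdx: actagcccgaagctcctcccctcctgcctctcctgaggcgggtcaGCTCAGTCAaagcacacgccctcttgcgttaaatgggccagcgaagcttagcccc
Pgd: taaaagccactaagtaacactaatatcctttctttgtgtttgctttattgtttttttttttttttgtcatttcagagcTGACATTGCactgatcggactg
Me1: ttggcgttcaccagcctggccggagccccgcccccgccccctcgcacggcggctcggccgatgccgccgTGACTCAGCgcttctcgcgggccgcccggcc
All 3 windows are on the minus strand, at chrX:74428883-74428982, chr4:149166058-149166157 and chr9:86695890-86695989. In G6pdx the core reads TGACTGAGC on the opposite strand and begins 57 bases before the start, in Me1 it reads TGACTCAGC 6 bases before the start, and in Pgd it reads TGACATTGC 3 bases past a downstream start, which lies inside the gene. The other Pgd promoter, at the upstream end of the gene, held neither this core nor the looser one given next. The looser core TGANNNNGC, which contains the stricter one, was in 41.3% of all promoters and in 6 of the 9 member promoters, at least 1 for each of the 6 genes: TGAGCGCGC in Taldo1, TGATTCGGC in Tkt and TGAGGCAGC, on the opposite strand, in Idh1. A match is a run of letters and not a measured binding site.

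The arrays had median intensities of 81.8 to 226 in Cy5 and 115 to 386 in Cy3, and 58.9% to 69.3% of Cy5 spots were well above background. Of the 10 member probes, 9 were well above background on all 27 arrays and a Tkt probe (A_52_P631197) on 0 of 27. The 3 Keap1-/- arrays shared a slide and a scan with no other group and had Cy3 medians of 115 to 147, so for them batch and genotype cannot be told apart. Before any result, 2 embryonic arrays go against their labels: across 17827 genes, replicate 3 labelled E11.5 correlated at 0.98 with E15.5 replicates 2 and 3 and at 0.84 and 0.79 with the other E11.5 arrays, and replicate 1 labelled E15.5 correlated at 0.96 and 0.93 with E11.5 replicates 1 and 2 and at 0.82 with both other E15.5 arrays. The called differences between wild-type ages are given with and without these 2 arrays, while group means and their order, correlations, and counts over lists and markers include them. Nfe2l2, which encodes Nrf2, differed by -3.63 on the log2 scale between Nrf2-/- and wild-type esophagus at P7 (limma adjusted p 2.35e-07), by -4.30 between adults and by -3.86 between the double null and wild-type. The Keap1 transcript differed from wild-type by -0.45 in Keap1-/- (adjusted p 0.144) and by -0.99 in the double null (adjusted p 0.0792), and no source used here says whether its probe lies in the deleted part. All 11 squamous epithelium markers were well above background on every array from P0 on, and 8 of the 11 on every array at E11.5 and at E15.5.

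Over the 9 groups, Me1 had the widest span of mean ratios, 25.3-fold between its lowest and its highest group, followed by G6pdx (10.6-fold), Pgd (9.2-fold), Taldo1 (5.85-fold), Idh1 (2.8-fold) and Tkt (2.7-fold). The lowest group was wild-type E15.5 for every member but Tkt, whose lowest was adult Nrf2-/-. The Tkt mean takes in a probe (A_52_P631197) that was not well above background in Cy5 on any array. The brightest Tkt probe alone (A_51_P394515) had its lowest mean at E11.5 (-0.32) and its highest in Keap1-/- (2.67). Without the 2 embryonic arrays that stand apart, the spans were 28.2-fold for Me1, 10.3-fold for G6pdx, 8.92-fold for Pgd, 5.62-fold for Taldo1 and 2.57-fold for Idh1, and the lowest group became E11.5 for Me1, G6pdx and Taldo1. Keap1-/- esophagus was the highest group for G6pdx, Pgd, Taldo1 and Tkt, adult wild-type epithelium for Me1 and adult Nrf2-/- epithelium for Idh1. These are levels relative to the reference RNA, so that members are compared across groups and not with each other.

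**Figure D1:**
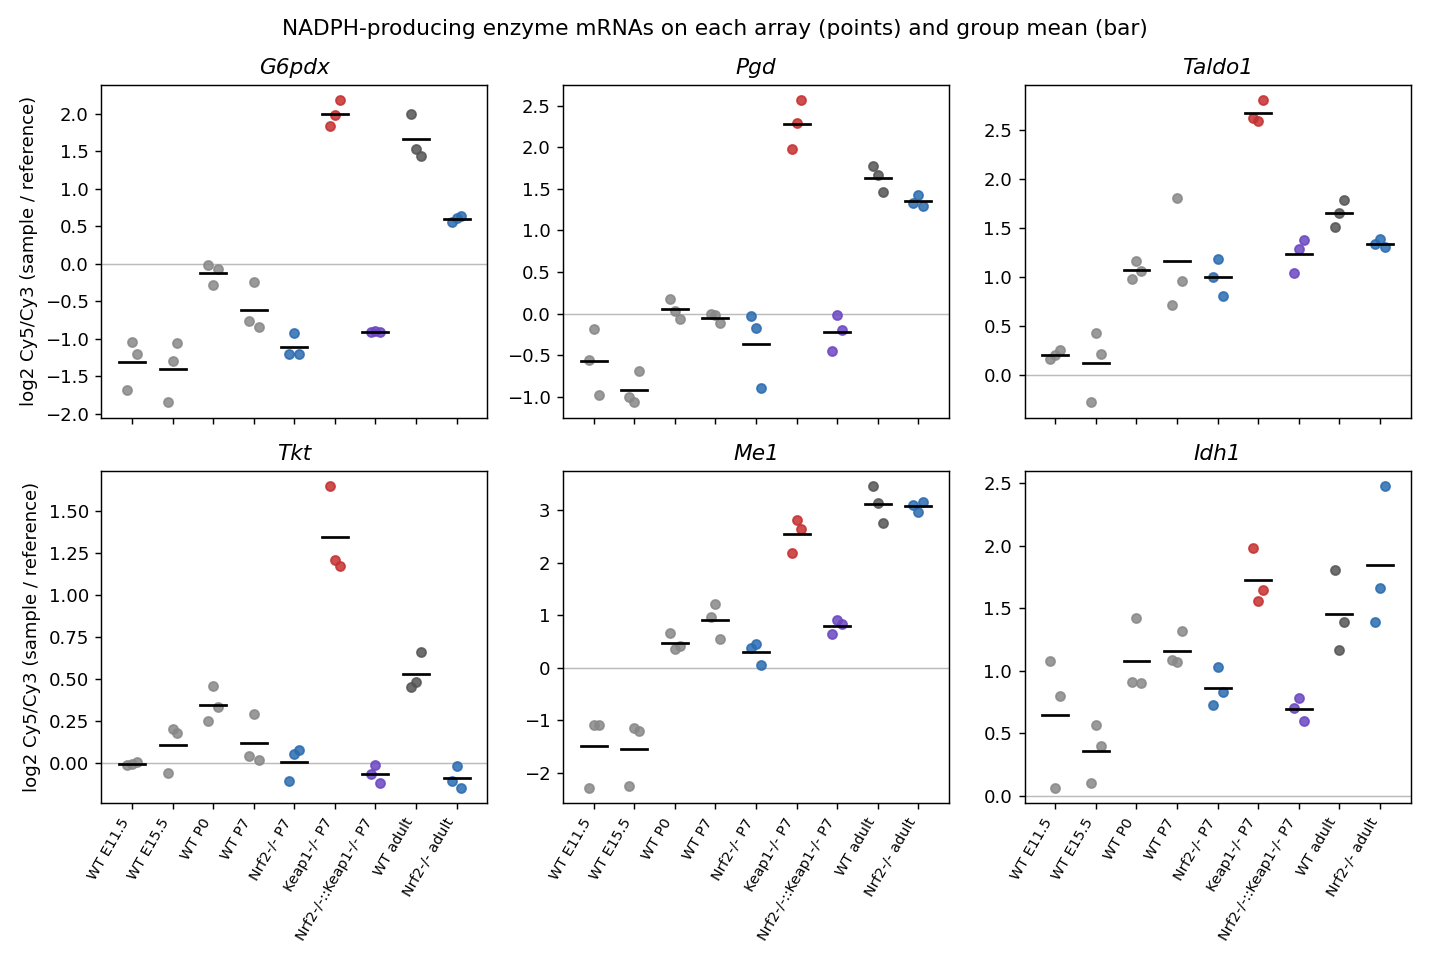
Log2 ratio of sample to reference (y axis) of the 6 members on each of the 27 arrays, by group (x axis), with points for arrays and bars for group means. G6pdx, Pgd, Taldo1 and Tkt stand highest in Keap1-/- esophagus, and Me1 rises 25.3-fold from its lowest group, E15.5, to its highest, adult wild-type.

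In G6pdx the order of group means ran from E15.5 (-1.40 ± 0.40, SD, n = 3) and E11.5 (-1.31 ± 0.33) through Nrf2-/- P7 (-1.11 ± 0.16), double null (-0.91 ± 0.007), wild-type P7 (-0.62 ± 0.32), P0 (-0.13 ± 0.14), adult Nrf2-/- (0.60 ± 0.05) and adult wild-type (1.65 ± 0.30) to Keap1-/- (2.00 ± 0.18). Arrays overlapped between the first 3 groups, between wild-type P7 and P0, and between adult wild-type and Keap1-/-. The Pgd order was the same, and there the arrays of all 6 groups below the adults overlapped with their neighbours while adult Nrf2-/- (1.36 ± 0.067), adult wild-type (1.64 ± 0.16) and Keap1-/- (2.28 ± 0.29) stood clear of each other.

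Taldo1 had E15.5 (0.12 ± 0.36) and E11.5 (0.20 ± 0.046) at the bottom, then 5 overlapping groups from 0.99 ± 0.19 (Nrf2-/- P7) to 1.34 ± 0.04 (adult Nrf2-/-), then adult wild-type (1.65 ± 0.14) and Keap1-/- (2.67 ± 0.11). Keap1-/- was clear of all other groups. Adult wild-type was clear of adult Nrf2-/- but not of wild-type P7, whose replicate 2 read 1.80. For Tkt, 8 groups lay in an overlapping series from -0.093 ± 0.067 (adult Nrf2-/-) to 0.53 ± 0.12 (adult wild-type), and Keap1-/- stood apart at 1.34 ± 0.27. These Tkt values are means over all its probes. Its brightest probe alone read 0.11 ± 0.14 in adult Nrf2-/-, 0.88 ± 0.32 in adult wild-type and 2.67 ± 0.22 in Keap1-/-. Me1 rose in steps from the embryos (-1.53 ± 0.63 and -1.49 ± 0.70) to an overlapping run of P0 and the other P7 groups between 0.30 ± 0.22 and 0.91 ± 0.34, then to Keap1-/- (2.55 ± 0.32) and the adults (3.08 ± 0.10 in Nrf2-/- and 3.13 ± 0.36 in wild-type). For Idh1 every group overlapped with its neighbours in the order, from 0.36 ± 0.24 at E15.5 to 1.84 ± 0.57 in adult Nrf2-/-. Groups further apart did not all overlap, among them Keap1-/- and wild-type P7.

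Across the 9 group means, the members correlated with each other at between 0.43 (Me1 with Tkt) and 0.98 (G6pdx with Pgd), values that share arrays and reference and that are given as a description. Among 17826 genes the closest in pattern were Mt2 and Hsd17b12 to G6pdx (Pearson's r 0.986 for both), Pmm2 (0.997) and Znhit2 (0.991) to Pgd, Sqor (0.987) and Irak1 (0.979) to Taldo1, Slc1a4 (0.98) and Cyp2b19 (0.972) to Tkt, Mocos (0.997) and Trex2 (0.994) to Me1, and Zdhhc7 (0.991) and Coro1b (0.986) to Idh1.

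Loss of Keap1 at P7 asks what the enzymes do when the inhibitor of Nrf2 is missing. All 6 members were higher in Keap1-/- than in wild-type esophagus at an adjusted p of 0.05 or lower, where 15.4% of the 18828 genes tested were called higher, and the arrays of the genotypes did not overlap for any member, as was so in this direction for 20.7% of all genes. The median of the 6 differences was 1.57 on the log2 scale against -0.024 for all genes. The rate-limiting enzyme of the pathway, G6pdx, read -0.77, -0.24 and -0.84 on the wild-type arrays and 1.83, 1.98 and 2.18 on the Keap1-/- arrays. That is a 6.12-fold difference (log2 2.61 ± 0.16, SE, 95% interval 2.27 to 2.96, limma adjusted p 1.08e-06).

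Pgd, which carries out the next NADPH-forming step, read -0.0075, -0.019 and -0.12 in wild-type and 1.98, 2.29 and 2.57 in Keap1-/- esophagi, a 5.02-fold difference (2.33 ± 0.22, adjusted p 3.18e-05). Both of its probes were higher, by 2.53 and 2.12. The lowest Keap1-/- array was far above the highest wild-type array. Me1 read 0.97, 1.21 and 0.55 against 2.19, 2.82 and 2.64, 3.11-fold (1.64 ± 0.20, adjusted p 0.000179), with its probes at 1.40 and 1.87.

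In the non-oxidative branch, Taldo1 read 0.71, 1.80 and 0.96 in wild-type and 2.62, 2.59 and 2.80 in Keap1-/- esophagi (2.85-fold, 1.51 ± 0.23, adjusted p 0.000773), with wild-type replicate 2 well above the other wild-type arrays. Tkt read 0.042, 0.29 and 0.017 against 1.65, 1.21 and 1.17, a 2.34-fold difference (1.23 ± 0.13, adjusted p 7.95e-05). Its 3 probes differed in size, at 2.46, 1.06 and 0.17, and the last of these is the probe not above background, so the brightest probe alone gave 2.46 in place of 1.23. Idh1 read 1.09, 1.07 and 1.32 against 1.98, 1.56 and 1.65, and its 1.49-fold difference (0.57 ± 0.13, adjusted p 0.00686) was the smallest of the 6. It was not called with all 27 arrays in the fit (adjusted p 0.104).

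Since the Cy3 signal was dim on the Keap1-/- arrays, the difference was also read from the Cy5 channel alone, an alternative chosen after seeing the data. All 6 were called there too, at 2.72 for G6pdx, 2.73 for Pgd, 1.93 for Me1, 1.69 for Taldo1, 0.94 for Tkt and 0.57 for Idh1. Centring each array on its median in place of loess moved the split of all called genes from 2904 of 6304 higher to 5281 of 8002 higher and the median of all genes to 0.11, and the members stayed called, from 0.82 (Idh1) to 3.11 (G6pdx). Without the outlier-marked spots, enough spots were left to test Idh1 and Tkt only, and both were called, at 0.57 and 1.17.

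Loss of both genes asks which of these levels need Nrf2. In the double null, G6pdx read -0.91, -0.90 and -0.91, Pgd -0.45, -0.012 and -0.20, and Me1 0.65, 0.91 and 0.84. Taldo1 read 1.04, 1.28 and 1.37, Tkt -0.065, -0.012 and -0.12, and Idh1 0.70, 0.78 and 0.60. Every double null array was below every Keap1-/- array for all 6 members, and for 22% of all genes.

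All 6 were lower in the double null than in Keap1-/- esophagus, a direction in which 15.2% of genes were called, with a median of -1.59 against 0.036 for all genes. The difference was -2.90 for G6pdx (7.49-fold, adjusted p 4.69e-07), -2.50 for Pgd (5.65-fold, 2.05e-05), -1.75 for Me1 (3.36-fold, 0.00012), -1.44 for Taldo1 (2.71-fold, 0.00106), -1.41 for Tkt (2.65-fold, 3.25e-05) and -1.04 for Idh1 (2.05-fold, 0.000216). Against wild-type, 0 of 6 members were called in the double null, where 0.43% of genes were called in either direction. Their differences lay between -0.47 and 0.073, the lowest adjusted p was 0.117, and 1 member had an unadjusted p of 0.05 or lower, as had 3279 of all 18828 genes by limma. Against Nrf2-/- esophagus the double null again had 0 of 6 called, beside 0% of all genes, with differences from -0.17 to 0.51, a lowest adjusted p of 0.765 and 1 member at an unadjusted p of 0.05 or lower, as had 1175 of all 18828 genes by limma. The Cy5 channel alone moved the split of called genes in the double null against Keap1-/- from 3452 of 6313 higher to 1570 of 4361, and that against wild-type from 59 of 81 to 214 of 768.

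The interaction, the effect of Keap1 loss with Nrf2 present minus its effect with Nrf2 absent, was above 0 and called for all 6 members, where 7.16% of genes were called higher. It was 2.41 ± 0.22 (SE) for G6pdx (adjusted p 6.63e-05), 2.18 ± 0.31 for Pgd (0.00131) and 1.30 ± 0.19 for Tkt (0.00137), and these 3 calls held under every alternative computed for them, median centring included, which moved the split of all calls from 1349 of 2861 higher to 1662 of 2710. It was 1.27 ± 0.33 for Taldo1 (0.0256), 1.13 ± 0.28 for Me1 (0.0218) and 0.74 ± 0.18 for Idh1 (0.0212), calls that were lost in 7, 8 and 4 of their alternatives. Without replicate 2 of Nrf2-/- at P7, the 3 smaller interactions were not called (adjusted p 0.0613 for Taldo1, 0.0537 for Me1, 0.0517 for Idh1). Other single arrays also ended a call: replicate 1 of the double null for Taldo1 (0.0624) and Me1 (0.0546), its replicate 3 for Idh1 (0.0509), replicate 1 of Nrf2-/- for Taldo1 (0.0526) and Me1 (0.0509), Keap1-/- replicate 3 for Taldo1 (0.0659) and Me1 (0.0565), Keap1-/- replicate 2 for Me1 (0.0548) and wild-type replicate 3 for Taldo1 (0.0586). The deposited ratios gave an adjusted p of 0.075 for Me1 and 0.0503 for Taldo1.

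**Figure D2:**
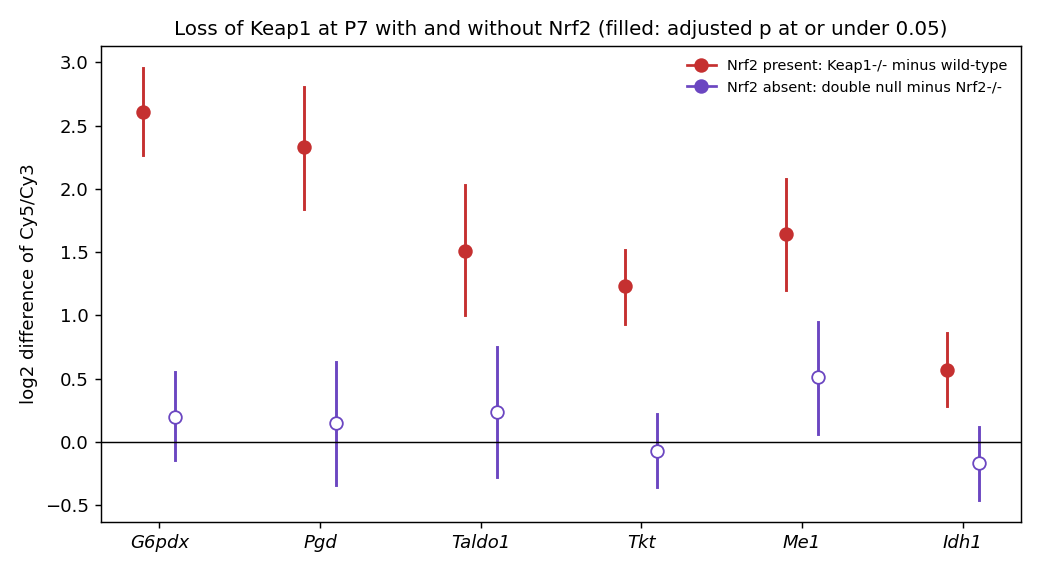
Log2 differences at P7 (y axis) for the 6 members (x axis), with 95% intervals from limma: Keap1-/- minus wild-type, where Nrf2 is present, and double null minus Nrf2-/-, where it is absent. The first runs from 0.57 (Idh1) to 2.61 (G6pdx), and the second lies between -0.17 and 0.51.

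Cell type markers differed between Keap1-/- and wild-type esophagus as well. Fibroblast markers were lower for 5 of 6, with array medians of 0.13 to 0.44 against 1.37 to 1.81 in wild-type, smooth muscle markers lower for 5 of 6 and higher for 1 (2.29 to 3.31 against 3.07 to 3.46), and immune markers lower for 4 of 6. Squamous markers were higher for 1 and lower for 2 of 11 (3.41 to 4.04 against 3.09 to 3.65), skeletal muscle markers higher for 4 and lower for 1 of 12, and 1 was higher of 8 fat, 4 blood, 3 lung and trachea, and 5 neuron and glia markers tested. In the double null against Keap1-/-, 5 of 6 fibroblast, 5 of 8 fat and 2 of 6 immune markers were higher. Lower there were 3 of 12 skeletal muscle and 1 of 6 smooth muscle markers. Squamous markers were higher for 1 and lower for 4 of 11. Of 4 blood and of 5 neuron and glia markers, 1 was higher and 1 lower, and 0 of 3 lung and trachea markers were called. Their part in the member differences was not tested. Fat marker medians were 4.01 to 5.55 in the double null, 1.67 to 2.59 in Nrf2-/- and 1.11 to 1.78 in Keap1-/-, against 0.24 to 0.96 in wild-type, and the part of fat in the level of Me1, which fat also expresses, was not tested. The Me1 arrays of the double null, 0.65 to 0.91, overlapped with those of wild-type and lay above those of Nrf2-/-, 0.048 to 0.46, by 0.51 on average (95% interval 0.065 to 0.95, limma adjusted p 0.765).

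Loss of Nrf2 alone at P7 left 0 of 6 members called and nearly no gene on the array: 0.0159% of genes were called in either direction, 3 of 18828, among them Nfe2l2. All 6 differences from wild-type were below 0, with a median of -0.31 against -0.0029 for all genes, and 3 members had an unadjusted p of 0.05 or lower, as had 2016 of all genes by limma. For 3 members, G6pdx, Me1 and Idh1, all Nrf2-/- arrays were below all wild-type arrays, which held for 8.32% of all genes. G6pdx read -1.20, -0.92 and -1.20 in Nrf2-/- and -0.77, -0.24 and -0.84 in wild-type esophagi, a difference of -0.49 (adjusted p 0.394). Me1 read 0.38, 0.46 and 0.048 against 0.97, 1.21 and 0.55, at -0.62 (95% interval -1.06 to -0.18, adjusted p 0.403).

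Pgd differed by -0.32 (adjusted p 0.616), Idh1 by -0.30 (0.461), Taldo1 by -0.16 (0.825) and Tkt by -0.11 (0.788). The Taldo1 value turned to 0.16 without wild-type replicate 2.

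The neighbouring genes of the pathway show how far the rise under Keap1 loss reached, in a comparison where 15.4% of all genes were called higher. All 5 genes of the oxidative branch were higher in Keap1-/- esophagus, with a median of 1.12. Beside G6pdx and Pgd these were Pgls, the lactonase between them, at 1.12 (adjusted p 9.62e-05), H6pd, which makes NADPH in the endoplasmic reticulum, at 1.05 (0.00315), and G6pd2, an intronless copy of G6pdx, at 1.1 (0.000699). Whether G6pdx RNA bound the G6pd2 probe was not tested.

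Of 5 genes tested in the non-oxidative branch, Taldo1 and Tkt were the 2 called, both higher. Of 5 genes that use ribose phosphate, 0 were higher and 2 lower, Prps1 and Prps2 (-0.40 each), which make the precursor of nucleotides. Among 8 malic and isocitrate enzymes Me1 and Idh1 were higher and the mitochondrial malic enzyme Me2 was lower (-0.43).

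Among 9 other sources of NADPH and NADP, 4 were higher: Aldh1l1 (2.84) and Aldh1l2 (1.73), which make NADPH as they oxidize 10-formyltetrahydrofolate, Mthfd1l (1.14), another enzyme of the folate cycle, and the NAD kinase Nadk (0.40). Mthfd2l was lower (-0.68). Taken without the members, the 26 tested genes of these NADPH lists had 7 called higher and 4 lower, with a median of 0.091 beside -0.024 for all genes. Of all 18828 genes, 2904 were called higher and 3400 lower. The lists also hold genes whose enzymes make no NADPH, such as those of ribose phosphate use.

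Of 10 redox enzymes that use NADPH, 8 were higher and 0 lower, with a median of 2.49, led by the aldo-keto reductase Akr1b8 (5.55), the quinone reductase Nqo1 (4.89), the biliverdin reductase Blvrb (3.1) and the carbonyl reductase Cbr3 (3.01). In glycolysis, 10 of 15 tested genes were higher and 0 lower (median 0.70), the largest being the glucose transporter Slc2a1 (2.18), Aldoa (1.73), Pfkm (1.61) and Hk1 (1.51). Of 9 genes of fatty acid synthesis 6 were higher and 0 lower (median 0.53), among them Acacb (0.90), Scd1 (0.85), Elovl6 (0.58) and Acly (0.57). In the double null against Keap1-/- esophagus, the same 26 genes had 8 called lower, Pgls (-1.30), G6pd2 (-1.26), H6pd (-0.99), Aldh1l1 (-2.83), Aldh1l2 (-1.94), Mthfd1l (-1.1), Nadk (-0.58) and Prpsap1 (-0.32), and 3 higher, Prps1 (0.53), Rbks (0.53) and Mthfd2l (0.60). Of all 18828 genes, 2861 were called lower in that comparison and 3452 higher. The interaction was called for 5 of the 26, all higher, Pgls (1.27), G6pd2 (1.21), H6pd (1.42), Aldh1l2 (1.82) and Mthfd1l (1.12), where 7.16% of all genes were called higher. By list, it was called higher for 5 of 5 genes of the oxidative branch, 7 of 10 redox enzymes, 5 of 15 glycolysis genes and 0 of 5 genes of ribose phosphate use.

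**Figure D3:**
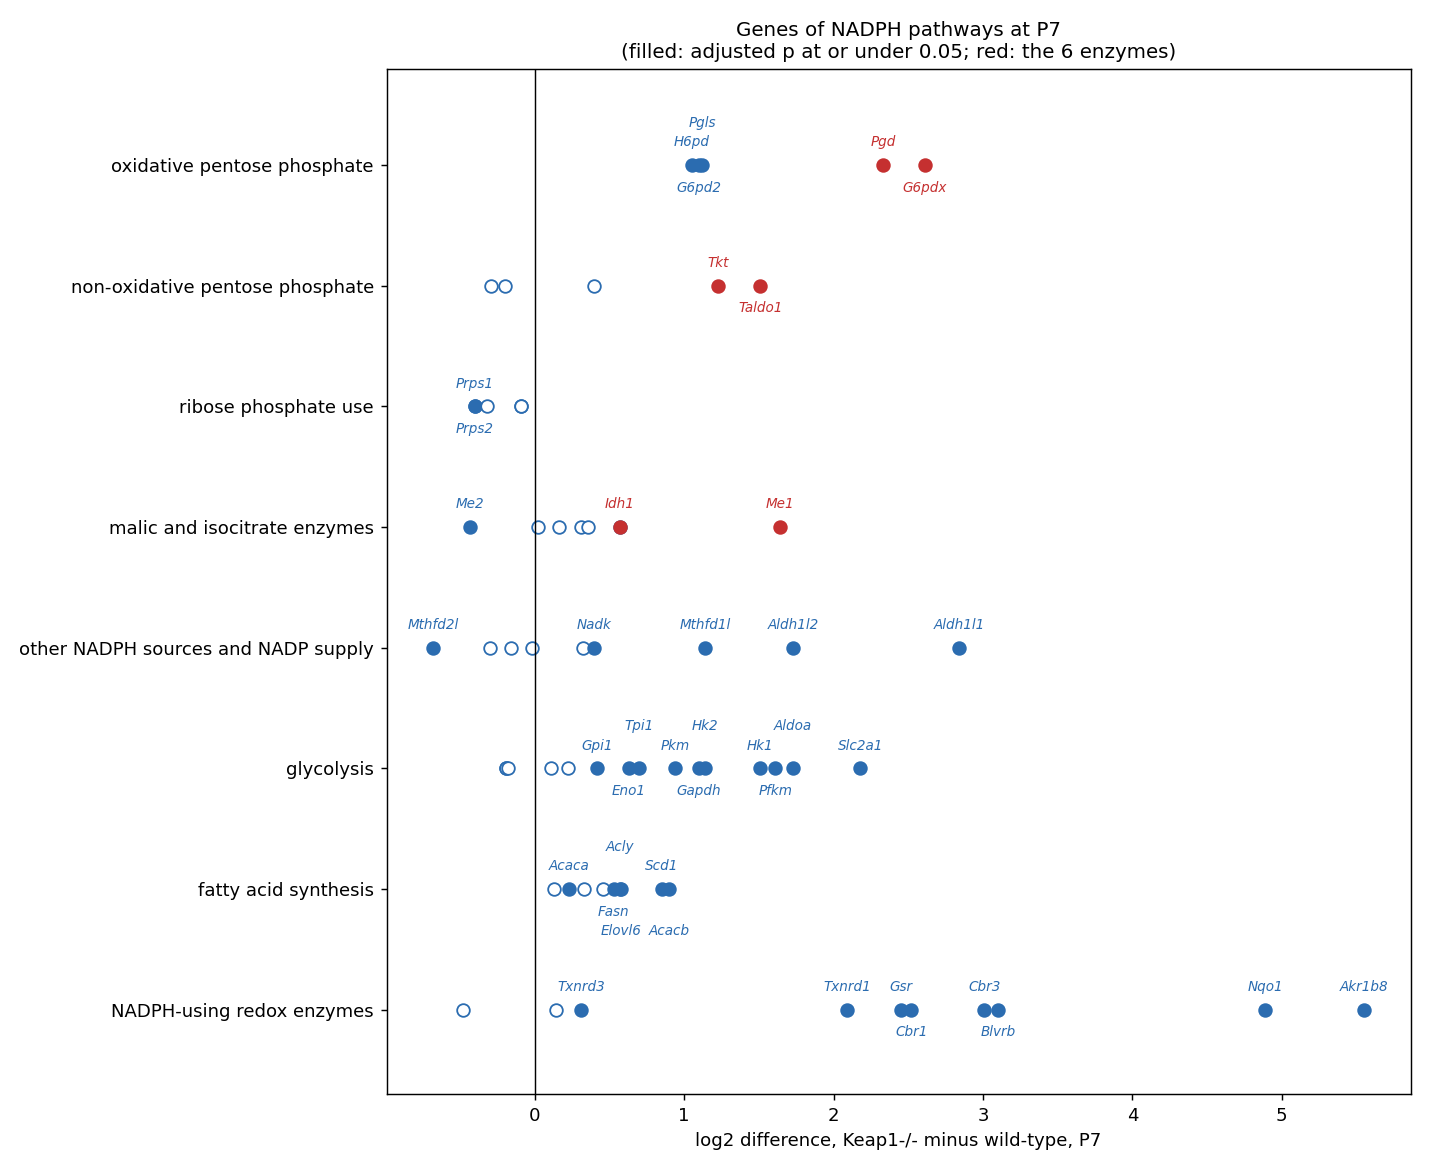
Log2 difference of Keap1-/- minus wild-type esophagus at P7 (x axis) for each tested gene of the pathway lists (y axis), 1 point a gene, members marked and genes past the threshold filled. All 5 oxidative branch genes lie above 0, the 5 genes of ribose phosphate use lie below 0, and redox enzymes reach 5.55.

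In the wild-type series the question was when the RNA levels of the members change as the esophagus becomes squamous. Among the 4 ages, 4 of 6 members were called by the F-test, where 30.3% of genes were called: Me1 (adjusted p 0.000939), G6pdx (0.00579), Pgd (0.00652) and Taldo1 (0.0143), but not Idh1 (0.0749) or Tkt (0.141). From E11.5 to E15.5, 0 of 6 members were called beside 0% of all genes (0 of 19449 by limma, 319 at an unadjusted p of 0.05 or lower), and the lowest adjusted p of a member was 0.996. Without the 2 arrays that stand apart, 2628 genes were called in this step and still 0 members, the lowest adjusted p being that of Pgd (0.0856). The F-test then called 45.9% of genes, 8781 of 19125, and again 4 of 6 members.

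From E15.5 to P0, 4 of 6 members were higher, where 11.4% of genes were called higher. All P0 arrays were above all E15.5 arrays for each of the 6 members and for 22.9% of all genes. The median of the 6 was 0.96 against -0.0074 for all genes. With median centring, 1566 of 3910 calls over all genes were higher in place of 2217 of 3880. Me1 read -2.26, -1.14 and -1.21 at E15.5 and 0.66, 0.36 and 0.41 at P0, a 4.03-fold rise (2.01 ± 0.37, SE, adjusted p 0.0044). The ages did not overlap, and the lowest value, -2.26, was on E15.5 replicate 1, which resembles E11.5, as -2.29 was on E11.5 replicate 1. G6pdx rose 2.42-fold (1.28 ± 0.24, adjusted p 0.00473), from -1.85, -1.30 and -1.06 to -0.02, -0.28 and -0.074.

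Pgd rose 1.96-fold (0.97 ± 0.18, adjusted p 0.00498), from -1.01, -1.07 and -0.69 to 0.18, 0.034 and -0.064. Taldo1 rose 1.93-fold (0.95 ± 0.26, adjusted p 0.0258), from -0.28, 0.43 and 0.21 to 0.98, 1.16 and 1.06. In both, each array at P0 was above each at E15.5. Idh1 (0.72, adjusted p 0.066) and Tkt (0.24, 0.172) were not called.

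Without the 2 embryonic arrays that stand apart, the rise to P0 was 1.65 for Me1 (adjusted p 0.00703), 1.06 for G6pdx (0.0117) and 0.93 for Pgd (0.00367), while Taldo1 was not called (0.75, 0.0812). The Taldo1 call was also lost without E15.5 replicate 1 alone (adjusted p 0.0902) and without P0 replicate 1 (0.0606), 2 (0.0869) or 3 (0.0726). In the Cy5 channel alone, Pgd (0.84, adjusted p 0.0557) and Taldo1 (0.56, 0.202) were not called.

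Between P0 and P7, 0 of 6 members were called, where 2.43% of genes were called in either direction. The differences ran from -0.49 to 0.44 and the lowest adjusted p was 0.39. The transhydrogenase Nnt was the 1 called gene of the NADPH lists outside the members there (-0.70). Over the whole interval from E11.5 to P7, 3 of 6 were higher beside 16.9% of genes, with a median of 0.61 against -0.011 for all genes, and with median centring 2048 of 5661 calls were higher in place of 3289 of 5908. Me1 rose 5.29-fold (2.40 ± 0.37, adjusted p 0.00113), from -2.29, -1.08 and -1.09 to 0.97, 1.21 and 0.55. Every P7 array was above every E11.5 array for Me1, as for 5 of 6 members and 21.8% of all genes.

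Taldo1 rose 1.94-fold over that interval (0.96 ± 0.26, adjusted p 0.0181), from 0.16, 0.20 and 0.25 to 0.71, 1.80 and 0.96. G6pdx rose 1.62-fold (0.69 ± 0.24, adjusted p 0.0478), from -1.68, -1.05 and -1.20 to -0.77, -0.24 and -0.84, a call that was lost in 13 of 22 alternatives. Pgd missed the threshold (0.53, adjusted p 0.0507), and Idh1 (0.51, 0.144) and Tkt (0.12, 0.464) were not called.

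Leaving out both embryonic arrays gave 2.60 for Me1 (adjusted p 0.000234), 0.98 for Taldo1 (0.0163), 0.75 for G6pdx (0.0257) and 0.33 for Pgd (0.125). Without E11.5 replicate 1, Taldo1 (adjusted p 0.056) and G6pdx (0.172) were not called, and G6pdx was not called either without E11.5 replicate 3 (0.0591) or wild-type P7 replicate 1 (0.0713), 2 (0.159) or 3 (0.0575). Without E11.5 replicate 2, Pgd was called (0.72, adjusted p 0.0114).

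Markers of other cells changed over the same interval. From E15.5 to P0, 9 of 12 skeletal muscle, 3 of 11 squamous, 2 of 6 immune, 1 of 5 fat and 1 of 3 lung and trachea markers were higher and 2 of 6 neuron and glia and 1 of 6 fibroblast markers lower, and the array medians of the squamous markers went from 0.0091 to 2.62 at E15.5 to 2.88 to 3.38 at P0. From E11.5 to P7, all 12 skeletal muscle, 9 of 11 squamous, 3 of 5 fat and 2 of 6 immune markers were higher, 2 of 5 blood and 1 of 6 fibroblast markers lower, and of 6 neuron and glia markers 1 was higher and 2 lower. Their part in the member differences was not tested. In the pathway lists, H6pd was higher at P0 than at E15.5 (0.81, adjusted p 0.0217), with the folate enzymes Mthfd1 (-0.49) and Mthfd2 (-0.87) lower, the cytochrome P450 reductase Por higher (1.89) and the desaturase Scd2 lower (-1.41). From E11.5 to P7, 5 of 9 other sources of NADPH and NADP were lower and 0 higher, namely Mthfd1l (-1.27), Mthfd2 (-0.95), Mthfd1 (-0.71), Nnt (-0.68) and the mitochondrial NAD kinase Nadk2 (-0.60), Prps1 was lower too (-0.76), and the ribokinase Rbks (0.85) and the sedoheptulokinase Shpk (0.61) higher. Of all 19449 genes tested over that interval, 3289 were called higher and 2619 lower.

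In adult epithelium, 4 of 6 members were higher than in P7 whole esophagus of the wild-type, where 21.9% of genes were called higher, with a median of 1.09 against 0.0058 for all genes. Own local backgrounds moved the split of all calls from 4190 of 8890 higher to 2116 of 6160. G6pdx read 2.00, 1.53 and 1.44 in adults, 4.82-fold above P7 (2.27 ± 0.18, SE, adjusted p 2.59e-06). Me1 read 3.47, 3.15 and 2.76, 4.64-fold above P7 (2.22 ± 0.20, adjusted p 7.68e-06). For both, as for Pgd and Tkt, each adult array was above each P7 array, which held for 26.4% of all genes.

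Pgd read 1.78, 1.67 and 1.46, a 3.22-fold difference (1.69 ± 0.19, adjusted p 3.23e-05), and Tkt 0.45, 0.48 and 0.66, 1.33-fold (0.41 ± 0.11, adjusted p 0.00882). The Tkt call was lost in the Cy5 channel alone (adjusted p 0.135), with the processed signals of the scanner software (0.111) and with each spot's own local background (0.169). Taldo1 (0.49, adjusted p 0.0978) and Idh1 (0.30, 0.356) were not called, although Taldo1 was called without wild-type P7 replicate 2, the high array (0.81, adjusted p 0.000725). Within the scan that held 2 of the adult and all 3 P7 arrays, the differences were 2.38 for G6pdx, 2.40 for Me1, 1.78 for Pgd and 0.35 for Tkt.

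Adult Nrf2-/- epithelium differed from Nrf2-/- esophagus at P7 in a like number of members, 4 of 6, where 27.1% of genes were called higher, with a median of 1.35 against 0.0087, and the split of all calls, 5192 of 10576 higher, moved to 7671 of 11056 with median centring and to 3993 of 11084 in the Cy5 channel alone. Me1 was 6.88-fold higher (2.78 ± 0.20, adjusted p 1.17e-06), Pgd 3.30-fold (1.72 ± 0.19, 2.13e-05), G6pdx 3.27-fold (1.71 ± 0.18, 1.6e-05) and Idh1 1.98-fold (0.98 ± 0.25, 0.00622). Taldo1 (0.34, adjusted p 0.22) and Tkt (-0.10, 0.46) were not called. All Nrf2-/- arrays at P7 were read on a scan that held no adult Nrf2-/- array, so no value within a scan can be given and a scan block was set through the wild-type arrays. The Idh1 call was lost with the scan (0.77, adjusted p 0.107) or the software version (1.08, 0.111) as a fixed block. The change with age was itself compared between genotypes, and 0 of 6 members were called, beside 0.0836% of genes. These differences of differences ran from -0.56 to 0.68, with a lowest adjusted p of 0.278 and 2 members at an unadjusted p of 0.05 or lower, as had 2161 of all 19142 genes by limma.

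Muscle and connective tissue markers were mostly lower in adult epithelium than in P7 whole esophagus, groups that differ in both age and tissue. In wild-type this held for all 12 skeletal muscle, 5 of 6 smooth muscle and all 6 fibroblast markers. Skeletal muscle medians were 0.82 to 1.70 in adults against 4.47 to 5.26 at P7, and fibroblast medians -1.11 to -0.76 against 1.37 to 1.81. Squamous markers were higher for 4 and lower for 1 of 11, and 5 of 5 neuron and glia, 3 of 4 blood, 2 of 7 fat and 2 of 6 immune markers were lower. In Nrf2-/-, 10 of 12 skeletal muscle, 6 of 6 smooth muscle, 6 of 6 fibroblast, 6 of 7 fat, 4 of 5 neuron and glia and 3 of 4 blood markers were lower, with 3 of 11 squamous markers higher and, of 6 immune markers, 3 lower and 1 higher. Of 3 lung and trachea markers, 1 was higher in both genotypes, and 1 was lower in wild-type and 2 in Nrf2-/-. Their part in the member differences was not tested, and the change of tissue holds for every adult comparison with P7.

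In the pathway lists, 4 of 5 oxidative branch genes were higher in wild-type adults, Pgls (1.05) and G6pd2 (0.86) beside G6pdx and Pgd, and H6pd was lower (-0.73). Of 5 non-oxidative genes Tkt and the epimerase Rpe (0.38) were higher. Me1 was the single higher gene of 8 malic and isocitrate enzymes, of which the 4 mitochondrial Me2 (-1.29), Idh2 (-1.76), Idh3b (-1.0) and Idh3g (-0.57) were lower. Of all 19142 genes, 4190 were called higher in that comparison and 4700 lower.

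Of the other sources of NADPH, Aldh1l2 (1.07) and Nadk (0.39) were higher, and Mthfd1l (-1.38) and Nnt (-1.16) lower. The ribokinase Rbks was higher (0.62), with 6 glycolysis genes higher and 1 lower. Of 9 fatty acid synthesis genes 5 were higher, including Elovl6 (2.08) and Fasn (0.86), and 2 lower, Thrsp (-2.34) and Acacb (-0.83). Of the redox enzymes 5 were higher, Nqo1 (3.46) and Akr1b8 (2.31) leading, and glutathione reductase, Gsr, was lower (-1.06). In Nrf2-/-, of the 26 tested genes of the NADPH lists outside the members, 4 were higher in adults, Pgls (0.93), Rpe (0.65), G6pd2 (0.46) and Aldh1l2 (1.21), and 11 lower, from Mthfd2l (-0.51) to Idh2 (-2.47), H6pd (-1.47) and Nnt (-1.48) among them. Of all 19142 genes tested there, 5192 were called higher and 5384 lower.

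Loss of Nrf2 in the adult epithelium compares the same tissue at the same age. Adult wild-type replicates 1 and 2 shared neither scan nor software version with any adult Nrf2-/- array, so batch and genotype cannot be fully told apart. G6pdx and Tkt were lower in Nrf2-/- than in wild-type, 2 of 6 members, where 0.413% of genes were called lower, and the median of the 6 was -0.30 against 0.015 for all genes. G6pdx read 0.55, 0.61 and 0.64 in Nrf2-/- and 2.00, 1.53 and 1.44 in wild-type epithelium, a 2.07-fold difference (-1.05 ± 0.18, SE, 95% interval -1.45 to -0.66, adjusted p 0.0263). Tkt read -0.11, -0.018 and -0.15 against 0.45, 0.48 and 0.66, a 1.54-fold difference (-0.62 ± 0.11, adjusted p 0.0273). In both genes the highest Nrf2-/- array was below the lowest wild-type array, which held for 4 of 6 members and 9.38% of all genes.

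The other 4 members were not called. Taldo1 read 1.33, 1.38 and 1.30 against 1.51, 1.65 and 1.78 (-0.31, adjusted p 0.501) and Pgd 1.33, 1.43 and 1.30 against 1.78, 1.67 and 1.46 (-0.28, 0.469). Me1 read 3.1, 2.97 and 3.16 against 3.47, 3.15 and 2.76 (-0.05, 0.93) and Idh1 1.39, 1.66 and 2.48 against 1.81, 1.17 and 1.39 (0.39, 0.451). The arrays of Taldo1 and Pgd did not overlap between genotypes, while those of Me1 and Idh1 did.

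Both adult calls depended on single arrays and on the processing. That of G6pdx was lost in 9 of 24 alternatives, in which the difference stayed between -1.28 and -0.33, and that of Tkt in 14 of 25, between -1.15 and -0.40. Neither was called without adult Nrf2-/- replicate 1 (adjusted p 0.0521 for G6pdx and 0.0531 for Tkt), 2 (0.108 and 0.101) or 3 (0.0748 and 0.0877), or without adult wild-type replicate 2 (0.0821 and 0.0889). Median centring ended both calls (-0.33, adjusted p 0.234, for G6pdx and -0.40, 0.0515, for Tkt) and called Idh1 (0.95, 0.0336) and Me1 (0.69, 0.0191) higher in Nrf2-/-, and each spot's own local background also called Idh1 higher (1.06, 0.0142). With the scan as a block the differences were -0.86 (adjusted p 0.269) for G6pdx and -0.73 (0.13) for Tkt, which are also the values within the scan that held 2 Nrf2-/- and 1 wild-type array. Over all genes, 160 of 239 calls were higher, and this count moved to 5357 of 5626 with median centring, 253 of 4556 in the Cy5 channel alone, 57 of 131 with scale normalization and 46 of 99 with the deposited ratios, while the median of all genes moved from 0.015 to 0.36 with median centring and to -0.33 in the Cy5 channel.

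Among the pathway genes of adult Nrf2-/- epithelium, 5 of 10 redox enzymes were lower, Nqo1 (-3.41), Akr1b8 (-2.75), Cbr3 (-1.17), Blvrb (-0.92) and Gsr (-0.82), and 0 were higher. In glycolysis Pgk1 was higher (0.45). No other gene of the NADPH lists was called beside G6pdx and Tkt. Skeletal muscle markers had array medians of 1.84 to 2.87 in Nrf2-/- and 0.82 to 1.70 in wild-type epithelium, with 0 of 12 called. Of 4 blood markers 2 were higher, the haemoglobin gene Hba-a1 (0.99, adjusted p 0.019) and Alas2 (0.71, 0.0455), and no marker of the other lists was called. Their part in the member differences was not tested.

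**Figure D4:**
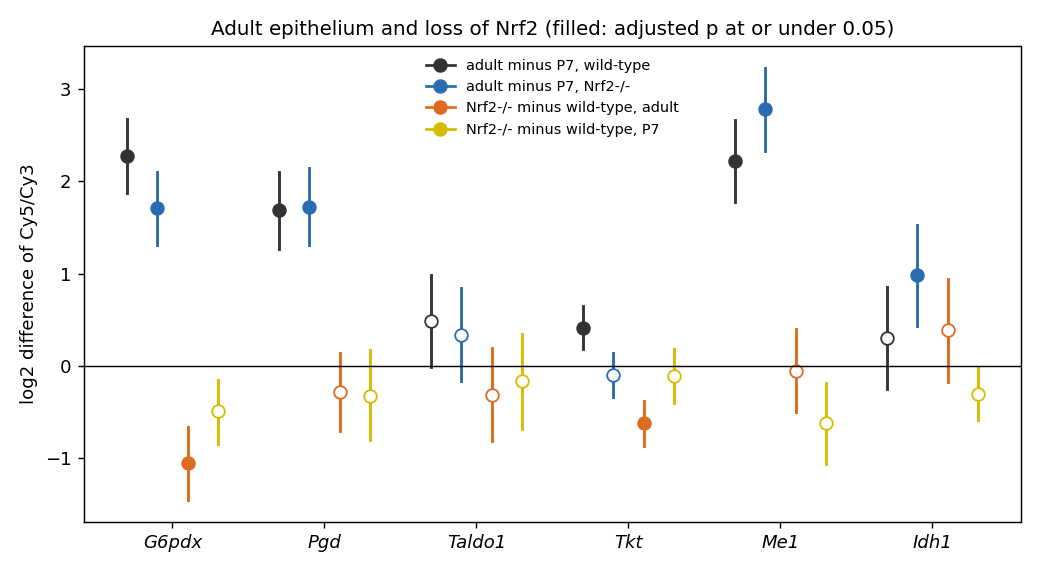
Log2 differences (y axis) for the 6 members (x axis), with 95% intervals from limma. The comparisons are adult minus P7 in wild-type and in Nrf2-/- mice, and Nrf2-/- minus wild-type at P7 and in adults. In adults, Nrf2-/- minus wild-type is -1.05 for G6pdx and -0.62 for Tkt. For Me1 it is -0.05, with an interval from -0.5 to 0.4.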

How the data were processed

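RNA of each sample was labelled with Cy5 and hybridised against reference RNA in Cy3 on an Agilent array, 27 in all. Scanner files deposited by the authors give the mean intensity of every spot and the local background's median intensity, both unsubtracted, with the signals and log ratios of Agilent Feature Extraction. The other table the authors deposited holds log10 ratios of Cy5 to Cy3, which equalled those log ratios within 0.005. The submitters' notes name version 9.1 of the software and the file headers versions 10.5.1.1 and 10.7.3.1.

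Here, background was corrected by normexp (offset 50), followed by loess on each array separately. Control spots were removed, as was any spot whose local background was more than 5 times its array's median, none of them a member's. Spots marked as outliers were kept. Of 41174 probes, 26918 were named through a RefSeq accession, and log2 ratios were averaged over the spots of a probe and then over the probes of a gene. A gene was tested where at least 3 arrays of the fit had a probe of it well above background in Cy5. Tests were limma's moderated t and F statistics (R 4.3.3 with limma 3.58.1 and statmod 1.5.0) in 3 fits of 12 arrays, for wild-type ages, P7 genotypes, and both ages of wild-type and Nrf2-/-. Adjusted p-values are Benjamini-Hochberg values over all tested genes, called at 0.05 or lower, and a difference is a log2 difference between group means. Precision is limited by the 3 arrays in each group. The code was tested on simulated data.

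Members and lists were chosen with earlier results of these data known. Named were all 6 members, given as ranges where none was called, the called genes of the NADPH lists, as counts with examples where many, at most 4 called genes of the glycolysis, fatty acid and redox lists, Nfe2l2, Keap1 and Nqo1, and the 2 genes closest in pattern to each member. Columns that could not be mapped to a sample numbered 0. The replicate numbers were not used to pair samples in the main fits. Alternatives covered background correction, normalization, filters, probes, arrays in the fit, blocks, each array left out, a 2-fold minimum and the deposited ratios. The Cy5 channel alone, minus each array's 75th percentile, was added after seeing the data.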

Additional observations from a re-analysis of the deposited data

Results flagged for a closer look

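The effect of Keap1 loss at P7 differed between mice with and without Nrf2 for all 6 members, by the interaction in limma over 12 arrays. The difference between the effects was 2.41 on the log2 scale for G6pdx (SE 0.22, adjusted p 6.63e-05), 2.18 for Pgd (0.31, 0.00131), 1.30 for Tkt (0.19, 0.00137), 1.27 for Taldo1 (0.33, 0.0256), 1.13 for Me1 (0.28, 0.0218) and 0.74 for Idh1 (0.18, 0.0212). The 3 Keap1-/- arrays shared their slide and scan with no other group, so genotype and batch cannot be told apart.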

How the results depend on the processing

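Of 832 recomputed values of called member differences under 47 settings, 752 kept their call, 80 lost it and 0 turned direction, while of 456 values of differences not called, 425 kept their side and direction, 16 were called and 15 turned. Without outlier-marked spots, where 2 members could be tested (4 among the wild-type ages), 2 were called in Keap1-/- against wild-type, in the double null against Keap1-/-, in the interaction, among 4 ages and from E15.5 to P0, and 1 in each of the other called comparisons. From E15.5 to P0, 2 members in place of 4 were called in the Cy5 channel alone and with at least a 2-fold change, and the Cy5 channel gave 2 in place of 4 among the ages. From E11.5 to P7, 1 in place of 3 was called in the Cy5 channel alone, with at least a 2-fold change, with median centring and with only the 2 groups compared. In adult Nrf2-/- against wild-type, 1 member in place of 2 was called with the processed signals, the deposited ratios, at least a 2-fold change, the brightest probe, only the 2 groups compared and the scan as a random block, and 0 with the scan or software version as a fixed block or the slide as a random block, while median centring called 2 others, Idh1 and Me1. With single arrays left out the number called was 3 to 6 for the interaction (3 without Nrf2-/- replicate 2), 0 to 2 for adult Nrf2-/- and 1 to 4 from E11.5 to P7 (1 without E11.5 replicate 1).

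The adult Nrf2-/- difference of Me1, -0.05, turned to 0.031 with the brightest probe, 0.69 with median centring (adjusted p 0.0191), 0.31 with each spot's own local background, 0.27 with the scan as a fixed block, 0.032 with it as a random block and 0.31 with the software version as a block, and ran from -0.23 to 0.12 with single arrays left out. Median centring also turned Pgd to 0.45 and Taldo1 to 0.47 there, Tkt to -0.042 from E11.5 to P7, and Tkt to 0.21 in Nrf2-/- from P7 to adult, which the brightest probe put at 0.32. Own local backgrounds turned Idh1 to -0.38 in wild-type from P7 to adult. Taldo1 at P7 in Nrf2-/- against wild-type ran from -0.39 to 0.16 with single arrays left out. The cause was not tested. All-gene counts that moved over 1.5 times included adult Nrf2-/- against wild-type, from 239 to 29 with the scan as a fixed block, 5265 with own local backgrounds, 5626 with median centring and 4556 in the Cy5 channel alone, and E15.5 to P0, from 3880 to 1720 with own local backgrounds and 2457 in the Cy5 channel alone. The counts over all genes also ran from 3 to 768 around 81 for the double null against wild-type, from 199 to 1100 around 472 from P0 to P7, from 3 to 1096 around 16 for the change with age between genotypes and from 1480 around 2861 for the interaction, and went from 10576 to 5732 for adult against P7 Nrf2-/- with the scan as a fixed block and from 3 to 9 for Nrf2-/- at P7 with the slide as a random block.

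The pairing of same-numbered arrays was checked by the correlation of their deviations from the group means, which was over 0.1 in 9 of 18 pairs of the wild-type ages, 7 of 18 of the genotypes and 3 of 18 of the adults and P7. Differently numbered arrays were not set beside these, so the check cannot decide whether the numbers mark pairs. The main fits did not use the numbers. With the replicate block, 1 member in place of 2 was called in adult Nrf2-/- (Tkt -0.62, adjusted p 0.0503) and 95 in place of 239 genes, and no other count of called members changed. A fixed slide block could be computed for E15.5 against E11.5 and the double null against Nrf2-/-, and no scan or software block for the Keap1-/- comparisons.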
